A study of Homo sapiens with 6 samples.

Results

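The siRNAs described here are the 28 library wells of a viability screen whose target is a chemokine or a chemokine receptor, out of 939 library siRNA wells in all. They were taken by gene symbol, as every library well whose symbol in the deposited table begins with CCL, CCR, CXCL, CXCR, CX3C, XCL or XCR followed by a number, with CCRL1 and CCRL2 included. The rule used no measured value, although earlier results of these data were known when the siRNAs were chosen. The 28 wells cover 27 genes, because CCL2 is on 2 wells that carry the same catalogue reagent. Of the wells, 7 target CC ligands, 6 target CXC ligands, 9 target CC receptors, 3 target CXC receptors, 1 targets CX3CR1 and 2 target CCRL1 and CCRL2, which belong to the atypical receptors.

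The cells were SUM149PT, an established human line of triple-negative inflammatory breast cancer, a form that lacks the hormone receptors and ERBB2 amplification used as drug targets. One group of 3 samples was transfected with siRNA at 45 nM for 48 hours and then exposed to 50 µM eicosapentaenoic acid (EPA), an omega-3 polyunsaturated fatty acid, for 72 hours. The other group of 3 samples was transfected in the same way and received no EPA. Each well was read as raw fluorescence intensity after resazurin, a dye that metabolically active cells turn fluorescent, was added, so that fewer cells and less reduction per cell cannot be told apart. The screen sought genes whose silencing complements EPA. All samples are 1 cell line and may or may not be separate cultures, so the p-values reflect variation among 3 samples a group that could be purely technical. The columns of the table are numbered through both groups, so the EPA samples are called replicates 4 to 6 and the untreated samples replicates 1 to 3. The mRNA and protein of the targets were not measured in this table, and neither the knockdown nor the presence of a target in these cells can be read from it.

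Chemokines are small secreted proteins that guide cell migration through G protein-coupled receptors. CC and CXC ligands are named for the spacing of conserved cysteines near the amino terminus, and each class binds mainly receptors of the same class. A bound receptor signals through inhibitory G proteins and phosphoinositide 3-kinase to the actin cytoskeleton and is then switched off by receptor kinases and arrestins. Atypical receptors bind chemokines or chemerin without this signalling and remove or present them. In breast cancer the family is best known for CXCR4 and CXCL12 in metastasis, for CCL2 and CCR2 in the recruitment of monocytes, and for the CXCR3 ligands in the attraction of T cells. In a culture of tumour cells alone, migration of immune cells plays no part in the readout.

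Where a well sat on its plate matters for these siRNAs. Of the 28 wells, 25 were on plate 3 and 3 (CXCL10, CCL4 and one of CCL2) on plate 1. On plate 3 all 9 CC receptors and CCRL1 lay in plate row 12, 5 CC ligands in row 10, and CXCL9, CXCR3, CXCR4 and CXCR6 in row 2. CCRL2 lay in row 14. CX3CR1, CXCL1, CXCL12, CXCL2 and CXCL3 lay in row 16, the plate edge. Wells of cells without siRNA on plate 3 kept 31.3% ± 1.69 (SE) of their untreated signal under EPA in row 12, 32.8% ± 1.95 in row 10, 46.0% ± 3.03 in row 14, 61.6% ± 5.35 in row 2 and 80.9% ± 6.87 in row 16. OTP3, the negative control siRNA, had a median of 19684 ± 1295 units with EPA and 45275 ± 3840 untreated on plate 3 (SD, n = 3), so that 43.5% ± 2.69 (SE) was left (two-sided exact permutation p = 0.1, the lowest value possible with 3 samples a group). Blank wells of plate 3 read 3886 ± 49.5 with EPA and 3745 ± 40.8 untreated, and TOX, the positive control siRNA, had medians of 3720 ± 93.4 with EPA and 4140 ± 124 untreated. Because rows differed this much, 2 position corrections were also computed. Median polish removes row and column medians of the library wells. The row control correction subtracts the cells without siRNA of the same row, which are 1 or 2 wells. After either correction each plate and sample was again centred on its library median. A value with row controls is therefore relative to that median, and is not the difference from the cells of the row.

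The raw signal was lower with EPA in most of these wells, and in most wells of the library. In 20 of the 28 wells (71.4%) all 3 EPA values lay below all 3 untreated values, where 61.7% of all 939 library wells did so and 63.7% of the 135 other siRNAs of the GPCR library. No well had all EPA values above all untreated values, as was so for 0.213% of the library. The share of the untreated signal left under EPA ran from 25.8% for CCR2 to 116% for CXCL1, with a median of 66.7%, beside a median of 68.6% for the library and 70.6% for the other GPCR siRNAs. Cells without siRNA of the same plate row kept more than the siRNA well in 5 of the 28 cases (CCR2, CXCL9, CXCR3, CXCL2 and CXCL3), or 17.9%, against 21.8% over the library.

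The synthetic lethal comparison, EPA minus untreated, was made on log2 values relative to the median library well of the same plate and sample. A negative value means that the siRNA well lost a larger share of its signal under EPA than that library median did. Because the median is taken in each sample, 0 is not the middle of the library's differences. In limma's test 2 of the 28 siRNAs were lower (CCR2 and CXCL9) and 8 were higher (CCL17, CX3CR1, CCRL1, CXCL1, CXCL2, CXCL12, CCR8 and CCL3) at a Benjamini-Hochberg adjusted p under 0.05. The background over all 939 library siRNAs was 15.2% lower and 29% higher, so that 7.14% lower is a smaller share here and 28.6% higher is close to it. The median difference was 0.20 for these siRNAs and 0.20 for the library, and 0.28 for the other GPCR siRNAs, all above 0. With the median difference of each plate set to 0 instead (median siRNA centring), 3 of the 28 were lower and 2 higher. The library share of that fit is not given here. Centring each plate on OTP3 instead gave 1 lower and 16 higher (library 6.28% and 58.1%), median polish 4 lower and 2 higher (14.8% and 16.3%), the row control correction 5 lower and 9 higher (17.6% and 26.7%), and blank subtraction 3 lower and 9 higher (16.5% and 25.8%). On the same log2 scale the groups did not overlap for 3 siRNAs with EPA below (10.7%, library 18.8%) and for 9 with EPA above (library 36%).

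CCR2, the receptor for CCL2 on monocytes and the lowest value among these siRNAs in the uncorrected fit, sat in row 12, column 7 of plate 3. Its well read 4327, 4966 and 4372 units in the EPA samples, against 18665, 14107 and 20164 units in the untreated samples. All EPA values were below all untreated values, and 1 of the 3 was within 3 SD of the blank wells. The log2 difference was -1.13 (SE 0.162, limma adjusted p = 0.000909), and it was lower in every one of the 16 alternatives run, between -3.68 and -0.74 with adjusted p from 1.92e-05 to 0.00719. With EPA the CCR2 siRNA stood at -1.33 from the library median (adjusted p = 2.75e-06), and without EPA at -0.20 (adjusted p = 0.138), which became a lower call after median polish (-0.37, adjusted p = 0.0158). Median polish gave -1.38 (adjusted p = 1.92e-05) and the row control correction -0.80 (adjusted p = 0.00481), where CXCL9 was lower still.

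The size of the CCR2 loss depended on the background. On raw values 25.8% ± 2.91 (SE) of the signal was left, beside 31.3% ± 1.69 in cells without siRNA of the same row, and the difference between these 2 shares was not tested. After subtraction of the blank wells 4.81% ± 1.43 was left for CCR2 and 25.5% ± 1.68 for cells without siRNA in row 12. OTP3 on plate 3 kept 38.0% after blank subtraction and the library median kept 46.3%. Of the 10 chemokine receptor siRNAs in row 12, CCR2 was the single one whose raw share fell below that of the row's cells without siRNA. The other 9 kept between 43.3% (CCR9) and 81.4% (CCR8). Its ligand CCL2 had no such loss on either of its wells.

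The CCL2 siRNA is the same reagent on both wells, and neither was called in EPA minus untreated. On plate 1 the CCL2 well read 13973, 10406 and 9965 units with EPA and 19550, 18252 and 15000 units untreated. On plate 3 it read 12072, 8638 and 7029 units with EPA and 13384, 12076 and 13371 units untreated. On both plates all EPA values lay below all untreated values. The log2 difference was 0.06 (SE 0.164, adjusted p = 0.798) on plate 1 and 0.29 (SE 0.180, adjusted p = 0.21) on plate 3. The row control of CCL2 on plate 1 was 1 well of cells without siRNA, shared with CCL4. With row controls the plate 1 CCL2 well was called higher (0.69, adjusted p = 0.0067) and the plate 3 well was at 0.53 (adjusted p = 0.0626). Both wells lay below the library median without EPA, at -0.46 (adjusted p = 0.00488) and -0.63 (adjusted p = 0.00132), and neither passed there after median polish (-0.01 and -0.14). The 2 wells differed by 0.24 in EPA minus untreated, which ranked 5th smallest among the 13 library reagents that are on 2 wells. Those 13 pairs differed by 0.03 to 0.71 with a median of 0.37, a measure of how far 1 reagent moves between plates in this screen.

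CXCL9, an interferon-induced ligand of CXCR3, was the other siRNA called lower. Its well in row 2 read 5619, 4623 and 4990 units with EPA and 15228, 14760 and 13604 units untreated, with no overlap, and 34.9% ± 2.31 (SE) of the signal was left. The log2 difference was -0.71 (SE 0.164, adjusted p = 0.00718). The blank level and the plate position both moved this value. After blank subtraction it was -2.17 (adjusted p = 0.00213), with 11.1% ± 2.98 left where cells without siRNA in row 2 kept 58.3% ± 5.80. The row control correction gave -1.38 (adjusted p = 0.000182), but median polish gave -0.27 (adjusted p = 0.24), and CXCL9 was not called there. Median polish also moved its untreated value to -1.09, against -0.47 without that correction. Of the 15 alternatives that gave a value, 13 called CXCL9 lower.

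CXCR3 and CXCL10, the receptor of CXCL9 and its other measured ligand, did not share that difference. CXCR3, in row 2 beside CXCL9, kept 56.8% ± 10.1 of its signal, with a log2 difference of -0.02 (adjusted p = 0.951), and CXCL10 on plate 1 kept 57.3% ± 4.0, with -0.12 (adjusted p = 0.518). CXCR3 was lower with the row control correction (-0.69, adjusted p = 0.0103) and at 0.17 after median polish. With row controls the 16 siRNAs of row 2 on plate 3 outside this set had 7 lower and 0 higher calls, with a median of -0.31. The CXCR3 siRNA lay below the library median in both groups, at -0.54 with EPA and -0.53 untreated.

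Among the CC ligands, CCL17 gave the lowest signal of all 28 wells without EPA. CCL17 is a ligand of CCR4, the receptor of T helper type 2 and regulatory T cells. Its well, in row 10 of plate 3, read 4982, 4400 and 4089 units with EPA and 4577, 4109 and 4515 units untreated, and the groups overlapped. Its raw share left was 102% ± 6.85 (SE), and 2 of the 3 EPA values were within 3 SD of the blank wells. The siRNA stood at -1.35 (SE 0.0854) from the library median with EPA and at -2.19 (SE 0.0854) untreated. The log2 difference of 0.84 (SE 0.121, adjusted p = 0.000951) was called higher, also after median polish (0.76) and with the row control correction (1.08). With the signal near the blank level in both groups, a further loss under EPA could not be read from this well, and the higher call is relative to a library median that kept 57.0% of its signal on plate 3. Quantile normalization took the difference to 0.36 (adjusted p = 0.0546). CCR4, its receptor, kept 64.2% ± 10.5 of the signal, with a difference of 0.21 (adjusted p = 0.472).

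CCL4 and CCL23 were also low without EPA, although CCL23, at -1.08 untreated, was not called there after median polish (-0.22, adjusted p = 0.184). CCL4, a macrophage-derived chemokine, read 5121, 5418 and 5394 units with EPA on plate 1 and 10218, 4958 and 6727 units untreated. The untreated values of CCL4 span those with EPA, and the difference of 0.29 (SE 0.237, adjusted p = 0.341) was not called, although it was with row controls (0.92, adjusted p = 0.00644). That correction rested on 1 well of cells without siRNA, the same as for CCL2 on plate 1. When 1 sample was left out the CCL4 difference ran from 0.04 without untreated replicate 2 to 0.56 without untreated replicate 1, where it was called (adjusted p = 0.0437). Relative to the library median CCL4 lay at -1.499 with EPA (adjusted p = 1.73e-05) and at -1.79 untreated (adjusted p = 7.76e-06). CCL23, a ligand of CCR1, read 5049, 4824 and 4870 units with EPA and 10622, 7617 and 10594 units untreated. All EPA values of CCL23 lay below all untreated values, at a log2 difference of -0.14 (SE 0.154, adjusted p = 0.484). After blank subtraction CCL23 was called lower, at -1.36 (adjusted p = 0.011), and after median polish it was at -0.50 (adjusted p = 0.0563). CCL25, the gut and thymus ligand of CCR9, averaged 6260 ± 422 units with EPA and 12217 ± 2242 units untreated (SD, n = 3), with a difference of -0.14 (adjusted p = 0.5).

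CCL3, a ligand of CCR1, lay above the library median in both groups, where CCL4 lay below it. The CCL3 well read 29899, 31196 and 19978 units with EPA and 36000, 32665 and 36770 units untreated, well above the library median in both groups (1.21 with EPA, adjusted p = 1.71e-06, and 0.81 untreated, adjusted p = 4.39e-05). All raw EPA values lay below all untreated ones, yet relative to the plate median the EPA values were higher, by 0.41 (SE 0.138, adjusted p = 0.0368). Median polish left 0.28 (adjusted p = 0.236), the row control correction gave 0.65 (adjusted p = 0.00448), and 5 of the 6 fits that left out 1 sample no longer called it, with differences from 0.32 to 0.54 over the 6 and a call only without EPA replicate 6. Over the 7 CC ligand wells, 6 lay below and 1 above the library median without EPA, and 6 below and 1 above with EPA. The background over the library was 35.6% lower and 33.9% higher without EPA, and 37% lower and 36.4% higher with it. Of the 7 wells, 5 lay in row 10 of plate 3, and the CCL2 reagent counts on 2 wells. The 15 other siRNAs of that row had 7 lower and 4 higher without EPA (median -0.32). With EPA those 15 had 6 lower and 2 higher (median -0.27). After median polish 4 of the 7 were lower and 2 higher with EPA (library 30.4% and 30.6%), and 3 were lower and 1 higher without it (27.6% and 26.5%). With row controls 4 were lower and 2 higher with EPA (32.6% and 33.7%), and 6 were lower and 1 higher without it (33.1% and 30.2%).

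The 5 siRNAs in row 16 gave 4 of the 8 higher calls, and none of the 4 was called higher after either position correction. CX3CR1, the receptor for fractalkine, read 14711, 12366 and 11344 units with EPA and 11542, 10876 and 12173 units untreated, with overlap. Its log2 difference was 0.96 (SE 0.149, adjusted p = 0.00128), but 0.26 (adjusted p = 0.26) after median polish and -0.14 (adjusted p = 0.474) with the row control correction. CXCL1, a neutrophil-attracting ligand of CXCR2, read 13099, 9115 and 18461 units with EPA and 10906, 10550 and 13642 units untreated, with overlap. The CXCL1 difference was 0.97 (SE 0.272, adjusted p = 0.0159), 0.17 (adjusted p = 0.687) after median polish and -0.12 (adjusted p = 0.682) with the row control correction. Without untreated replicate 1 it was 0.88 (adjusted p = 0.0575) and was not called. Both wells were low for this row without EPA, at -0.80 and -0.79, where the 15 other siRNAs of row 16 on plate 3 had a median of 0.45.

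CXCL2 and CXCL3, close relatives of CXCL1 that also bind CXCR2, gave the highest signals of the 28 in both groups. The CXCL2 well read 36985, 31880 and 35646 units with EPA and 45181, 45303 and 42786 units untreated. The CXCL3 well read 40786, 31628 and 29704 units with EPA and 45822, 44768 and 56838 units untreated. In both wells all EPA values lay below all untreated values, and as a share of the plate's OTP3 median CXCL2 stood at 177% ± 4.13 with EPA and 98.7% ± 11.2 untreated, and CXCL3 at 172% ± 21.6 with EPA and 108% ± 8.91 untreated (SD, n = 3). Relative to the library median CXCL2 was at 1.60 with EPA and 1.15 untreated, and CXCL3 at 1.56 with EPA and 1.28 untreated. After median polish CXCL2 was at 0.49 with EPA and 0.65 untreated, and CXCL3 at 0.05 with EPA and 0.52 untreated. The EPA minus untreated difference was 0.46 (SE 0.130, adjusted p = 0.0171) for CXCL2, which was called, but without EPA replicate 6, untreated replicate 1 or untreated replicate 3 it was not (adjusted p up to 0.0596), and 0.28 (SE 0.136, adjusted p = 0.123) for CXCL3, which was not. Both turned negative with the corrections: CXCL2 was at -0.16 (adjusted p = 0.481) after median polish and -0.64 (adjusted p = 0.004) with row controls, and CXCL3 at -0.47 (adjusted p = 0.0317) and -0.82 (adjusted p = 0.00128). With row controls the 15 other siRNAs of row 16 on plate 3 had a median of -0.63. Cells without siRNA in row 16 kept 80.9% ± 6.87 of their signal, and CXCL2 kept 78.4% ± 3.73 and CXCL3 69.3% ± 8.83.

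CXCL12, the ligand of CXCR4, read 40934, 27856 and 19657 units with EPA and 34425, 29688 and 29850 units untreated. The EPA values of CXCL12 spread over more than the whole untreated range, and the groups overlapped. On the log2 scale the difference was 0.66 (SE 0.192, adjusted p = 0.0189), -0.32 (adjusted p = 0.184) after median polish and -0.44 (adjusted p = 0.12) with row controls. The 15 other siRNAs of row 16 on plate 3 had 7 higher and 3 lower calls without correction, with a median difference of 0.47, and 1 higher and 5 lower after median polish. With row controls they had 0 higher and 9 lower.

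CXCR4, the receptor of CXCL12, was read in row 2 at 20576, 11806 and 15911 units with EPA and at 24868, 19229 and 29167 units untreated. Its lowest untreated value lay below its highest EPA value, and the difference was 0.19 (SE 0.212, adjusted p = 0.48). The corrections took it in opposite directions, to 0.78 (adjusted p = 0.0048, called higher) after median polish and to -0.47 (adjusted p = 0.0876) with row controls, so no direction was settled for CXCR4. CXCR6, the receptor of CXCL16, averaged 12226 ± 2781 units with EPA and 17235 ± 2502 untreated, with a difference of 0.30 (adjusted p = 0.256), which was -0.37 (adjusted p = 0.172) with row controls. The CXCR receptors therefore had 0 of 3 calls in EPA minus untreated in limma's test of uncorrected log2 values, and none had an unadjusted p under 0.05.

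Among the other receptors in row 12, CCRL1 and CCR8 were called higher. CCRL1, now named ACKR4, is a scavenger of CCL19, CCL21 and CCL25. Its well read 21235, 17969 and 18538 units with EPA and 23907, 23625 and 24874 units untreated, with no overlap, and the log2 difference was 0.48 (SE 0.134, adjusted p = 0.0158). CCR8, the receptor of CCL1 on regulatory T cells, read 15122, 12774 and 9881 units with EPA and 18005, 12603 and 15778 units untreated, with overlap and a difference of 0.51 (SE 0.167, adjusted p = 0.0323). Neither was called after median polish (0.25 and 0.04), and both were with row controls (0.81 and 0.84). In row 12 the 10 siRNAs outside this set had 7 higher and 2 lower calls with row controls, with a median of 0.61. When 1 sample was left out, CCRL1 was called in 4 of 6 fits, not without EPA replicate 6 or untreated replicate 1, and CCR8 in 2 of 6, those without EPA replicate 6 and untreated replicate 1.

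CCR9, the receptor of CCL25, read 10616, 11199 and 6646 units with EPA and 24432, 18773 and 22579 units untreated, without overlap. Its difference was -0.43 (SE 0.179, adjusted p = 0.0775), -0.53 (adjusted p = 0.034) after median polish and -0.10 (adjusted p = 0.709) with row controls.

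CCR1, which binds CCL3 and CCL23, gave the highest signal of the receptors, at 17026, 31798 and 25171 units with EPA and 37031, 37622 and 34982 units untreated. It lay above the library median at 1.06 with EPA (adjusted p = 0.000115) and 0.86 untreated (adjusted p = 0.000599), and its difference of 0.20 (SE 0.217) did not pass (adjusted p = 0.481). With row controls CCR1, CCR3 and CCR4 were called higher, at 0.53, 0.64 and 0.54. That is near the median of 0.61 of the 10 row 12 siRNAs outside this set, of which 7 were higher and 2 lower. Without EPA replicate 4 CCR1 and CCR3 were called higher as well, at 0.48 (adjusted p = 0.0223) and 0.61 (adjusted p = 0.00873). CCR3, the eotaxin receptor of eosinophils, CCR6, the receptor of CCL20, and CCR7, the lymph node homing receptor, had differences of 0.31, -0.01 and -0.06, and none passed (adjusted p = 0.299, 0.945 and 0.837). They kept 72.7% ± 12.6, 56.3% ± 5.43 and 57.5% ± 13.8 of their signal. CCRL2, which binds chemerin, had a difference of 0.04 (adjusted p = 0.837) and lay below the library median in both groups, at -0.42 with EPA and -0.46 untreated. After median polish it was at -0.61 with EPA and -0.96 untreated.

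Relative to the library median, 12 of the 28 siRNAs were lower and 10 higher with EPA (42.9% and 35.7%), and 13 were lower and 8 higher without it (46.4% and 28.6%). The background with EPA was 37% lower and 36.4% higher, and without EPA 35.6% lower and 33.9% higher. After median polish 11 were lower and 9 higher with EPA (library 30.4% and 30.6%), and 10 were lower and 8 higher without it (27.6% and 26.5%). With row controls 11 were lower and 11 higher with EPA (32.6% and 33.7%), and 13 were lower and 7 higher without it (33.1% and 30.2%). Blank subtraction gave 12 lower and 10 higher with EPA (37.2% and 36.8%), and 12 lower and 8 higher without it (32.9% and 31.2%). These are relative calls. Against OTP3, 18 of the 28 were lower with EPA and 25 without it, beside 64.6% and 91.8% over the library, and 4 were higher with EPA, beside 13.5%. Without EPA 0.532% of the library was higher than OTP3. The siRNAs called lower with EPA in the plain fit, after median polish and with row controls alike numbered 8 (CCL17, CCL23, CCL25, CCL4, CCR2, CCRL2, CXCL9 and CXCR3). Those called lower without EPA in all 3 fits also numbered 8, and CX3CR1 and CXCL1 stood there in place of CCR2 and CCL23. Called higher in all 3 fits were 6 with EPA (CCL3, CCR1, CCR3, CCR4, CCR7 and CXCL2). Without EPA 6 were higher in all 3 (CCL3, CCR1, CCR7, CXCL12, CXCL2 and CXCL3). In EPA minus untreated 1 siRNA was lower in all 3 fits, that against CCR2, and 1 was higher, that against CCL17. The share of the library called in all 3 fits is not given here, so these joint counts have no background beside them.

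The wells of receptor and ligand pairs were set side by side. CCR2 and CCL2 differed most, at -1.13 against 0.06 and 0.29. CCR9 was at -0.43 and CCL25 at -0.14, CCR4 at 0.21 and CCL17 at 0.84, and CXCR4 at 0.19 and CXCL12 at 0.66. In the uncorrected fit none of these 4 pairs had both members called in EPA minus untreated. With row controls CCR4 (0.54, adjusted p = 0.04995) and CCL17 (1.08) were both called higher, as were CCR1 (0.53) and CCL3 (0.65), and CXCR3 (-0.69) and CXCL9 (-1.38) were both called lower. Plate 3 siRNAs outside this set also had such calls in the same rows. Of 16 in row 2, 7 were lower and 0 higher (median -0.31). Of 10 in row 12, 7 were higher and 2 lower (median 0.61). Of 15 in row 10, the row of CCL17 and CCL3, 4 were higher and 3 lower (median 0.18). Whether the pairs moved apart from their rows was not tested.

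Of the chemokine family genes that the table lists under other symbols, 4 were measured, all on plate 3. CXCR5, listed as BLR1, the receptor that leads B cells to follicles, was at 0.54 in EPA minus untreated (adjusted p = 0.0106), with 5541, 5080 and 5192 units with EPA and 6902, 5930 and 6271 units untreated. The chemerin receptor CMKLR1 was at 0.47 (adjusted p = 0.0197). The atypical receptors ACKR1, listed as FY, and ACKR2, listed as CCBP2, were at 0.56 (adjusted p = 0.0696) and 0.14 (adjusted p = 0.566). After median polish CMKLR1 passed (0.49, adjusted p = 0.0447) and CXCR5 did not (0.12, adjusted p = 0.673), and with row controls CXCR5 and ACKR1 passed (0.89 and 0.80).

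The pathway that carries the signal of these receptors was read through 4 gene lists. Of 12 measured G protein subunits 4 were lower and 3 higher (library 15.2% and 29%), with GNAI1, an inhibitory alpha subunit, at -0.98 (adjusted p = 0.000766) and GNA13 at -1.02 (adjusted p = 0.00113). GNB4 was at 1.03 and GNA14 at 0.70 (adjusted p = 0.0022 and 0.00541). GNAI1 and GNA13 passed after median polish (-1.05 and -0.61) and with row controls (-1.25 and -1.29), whereas GNB4, in row 16, did not pass in either. The list had 5 lower and 1 higher after median polish (library 14.8% and 16.3%), and 8 lower and 0 higher with row controls (17.6% and 26.7%). GNAI1, GNA13 and GNA14 lay in row 14 of plate 3 and GNB4 in row 16. With row controls the 15 siRNAs of row 16 outside the chemokine set, GNB4 among them, had 9 lower and 0 higher calls. Whether the list moved apart from its rows was not tested. GNAI1 read 9662, 9155 and 8694 units with EPA and 33054, 29430 and 32787 units untreated, with no overlap.

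Receptor kinases and arrestins had 2 lower and 2 higher among 8 wells of 6 genes (library 15.2% and 29%). GRK6 and GRK5 were lower, at -0.81 and -0.80 (adjusted p = 0.00574 and 0.033), and both wells of GRK2, listed as ADRBK1, were higher, at 0.72 and 0.56 (adjusted p = 0.0091 and 0.019). After median polish these 4 still passed, and with row controls both GRK2 wells did but GRK5 and GRK6 did not (adjusted p = 0.218 and 0.0767). Kinases downstream of chemokine receptors had 3 lower and 10 higher among 31 wells of 30 genes, against 15.2% and 29% over the library, with SRC (-1.0) and MAP2K1 (-0.70) lower and PIK3CG (1.05) higher. PIK3CG is the phosphoinositide 3-kinase that G protein-coupled receptors activate directly. That list had 1 lower and 6 higher after median polish (library 14.8% and 16.3%), and 5 lower and 14 higher with row controls (17.6% and 26.7%). Kinases upstream of inflammatory chemokine genes had 2 lower and 6 higher among 17 (library 15.2% and 29%). TYK2 (-0.86) and MAPK8 (-0.43) were lower, and RIPK1 (0.86) and TBK1 (0.81), both in row 1, were among the higher. After median polish 3 were lower and 0 higher (library 14.8% and 16.3%), and TBK1 (0.18) and RIPK1 (0.24) no longer passed. With row controls 5 were lower and 2 higher (library 17.6% and 26.7%). TBK1 turned to a lower call there (-0.42, adjusted p = 0.0468), and RIPK1 (-0.37, adjusted p = 0.0896) and MAPK8 (-0.08, adjusted p = 0.775) did not pass.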

How the data were processed

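The deposited table gives the fluorescence intensity of each well, raw per the file headers. How the authors treated background and position is not stated in the labels or headers. The table held 1152 wells on 3 plates of 16 rows and 24 columns, and each plate had 16 blank wells, 24 wells of cells alone, 16 of OTP3 and 8 of TOX. A further 21 wells marked as without siRNA entered no fit. Column names give the group of a value but not which numbered sample it is. Symbols were updated by locus identifier from RefSeq (GRCh38.p14), which matched 27 of the 28 wells; the CCR2 well kept the file's symbol. The files name no genome build, so no coordinates are given, and the reagents' sequences were not used here.

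Values are log2 ratios of each well to the library median of the same plate and sample, without a pseudocount. limma 3.58.1 (R 4.3.3, trend and robust options) fitted 939 library wells, with Benjamini-Hochberg adjustment over all of them at 0.05. The fit was tested on simulated data with independent noise in each well. The simulation held no row effect and no blank floor, so it could not show how these alter the calls. Precision is limited by 3 samples a group and by the distance from the blank wells. The siRNAs, gene lists and alternatives were chosen with earlier results of these data known. All 6 values are given for siRNAs called in EPA minus untreated, those whose call changed under median polish, the 4 lowest and 4 highest in each other contrast, and CCL2; the values of 1 of these siRNAs and of 1 pathway gene are not reported here. Alternatives were OTP3 or median siRNA centring, median polish, blank subtraction, both together, quantile normalization, plain eBayes, a low-signal filter, no edge wells, and leaving out each sample. The row control correction was added after the data were seen.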

Additional observations from a re-analysis of the deposited data

Results flagged for a closer look

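In the uncorrected fit the siRNA against CX3CR1 stood on opposite sides of the library median in the 2 groups. It was above the median in all 3 EPA samples and below it in all 3 untreated samples, and the difference was tested at 0.96 (log2, limma adjusted p = 0.00128). The EPA side was not called (0.16, adjusted p = 0.204), and the untreated side was (-0.80, adjusted p = 8.17e-05). With EPA it lay below the median after median polish (-0.49) and with row controls (-1.13). The well is in row 16, at the plate edge, where cells without siRNA kept 80.9% of their signal. The difference was 0.26 after median polish and -0.14 with row controls, and neither value passed.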

How the results depend on the processing

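No paired analysis was possible because the value columns, numbered 1 to 6 through both groups, show the group and no sample number shared by both groups. In EPA minus untreated, the 2 lower siRNAs became 1 with OTP3 centring, 4 with median polish, 5 with blank subtraction and median polish, 1 with the low-signal filter (23 wells) and 5 with row controls. The 8 higher became 16 with OTP3 centring, 2 with median siRNA centring, 2 with median polish, 2 with blank subtraction and median polish, 3 with quantile normalization and 4 without edge wells (23 wells). Without edge wells 16.8% of the library was lower and 23.3% higher. Library shares for OTP3 centring, median polish and row controls are given above. Those for the other settings, with 1 sample left out among them, are not given here, so their counts have no background. With EPA, the 12 lower became 6 with the low-signal filter and the 10 higher became 4 with OTP3 centring. Untreated, the 13 lower became 25 with OTP3 centring and 8 with the low-signal filter, and the 8 higher became 0 with OTP3 centring and 5 without edge wells. Counts with the filter and without edge wells fell largely because wells were removed. The filter took out CCL17, CCL23, CCL25, CCL4 and CXCL9, all called lower in both groups. The edge setting took out CX3CR1, CXCL1, CXCL12, CXCL2 and CXCL3. In both settings the 22 kept wells compared had the same call untreated and in EPA minus untreated. With EPA and the filter, 21 had the same call and 1 weakened. With 1 sample left out, counts ran from 2 to 3 lower and 5 to 8 higher in EPA minus untreated (5 higher without untreated replicate 1 and without untreated replicate 3), 9 to 11 and 8 to 10 with EPA, and 11 to 13 and 6 to 9 untreated.

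Values called in at least 1 of the 2 fits compared turned sign as follows, and the cause was not tested. Turns between values called in neither fit, such as that of CXCR6 with row controls, are not listed. In EPA minus untreated, median polish gave CXCL12 -0.32, CXCL2 -0.16 and CXCL3 -0.47, and blank subtraction with it -0.36, -0.0747 and -0.62. Quantile normalization gave CXCL2 -0.0158. Row controls gave CX3CR1 -0.14, CXCL1 -0.12, CXCL12 -0.44, CXCL2 -0.64 and CXCL3 -0.82. With EPA, median polish gave CCL2 on plate 1 0.28, CX3CR1 -0.49 and CXCL1 -0.96, and blank subtraction with it gave CCL2 on plate 1 0.45, CXCL1 -1.22 and CXCL3 -0.0434. Row controls gave CCL2 on plate 1 0.31, CCR9 0.00789, CX3CR1 -1.13, CXCL1 -1.10, CXCR4 -0.27 and CXCR6 -0.65. OTP3 centring, which sets a different zero, gave with EPA CCR3 -0.33, CCR4 -0.25, CCR7 -0.15, CCR8 -0.66, CCRL1 -0.0335, CX3CR1 -0.63, CXCL1 -0.59, CXCL10 -0.48, CXCR4 -0.32 and CXCR6 -0.71. Untreated it gave CCL3 -0.36, CCR1 -0.31, CCR3 -1.02, CCR4 -0.85, CCR7 -0.48, CCR9 -1.05, CCRL1 -0.90, CXCL10 -0.75, CXCL12 -0.53, CXCL2 -0.0238 and CXCR4 -0.91. Untreated, median polish gave CCRL1 -0.16 and CXCR4 -0.52, and blank subtraction with it -0.18 and -0.61. OTP3 centring moved the library median difference to 0.63, against 0.20.

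Wells near the blank level, such as those of CCL17 and CCR2 with EPA, limit how far a loss can be read.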
